A study of Homo sapiens with 6 samples.

Results

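The 38 HOX genes described here are a list by name, made with earlier results of these data known but with no threshold on a measured value, out of 19974 protein-coding genes on chromosomes 1 to 22 and X. They comprise 10 genes of the HOXA cluster on chromosome 7 (HOXA2 to HOXA13), 10 of HOXB on chromosome 17 (HOXB1 to HOXB13), 9 of HOXC on chromosome 12 (HOXC4 to HOXC13) and 9 of HOXD on chromosome 2 (HOXD1 to HOXD13). The data are CUT&Tag peak lists from SK-N-BE(2), an established human neuroblastoma line with amplified MYCN. CUT&Tag uses an antibody to bring a transposase to chromatin, so that DNA next to the bound protein is cut and tagged. The libraries are 2 for HAND2, 2 for MEIS2 and 1 for TCF4, all from untreated cells as far as the labels say. An IgG control library is taken to enter only through the background of each peak, since the processing notes give no options. The labels do not say whether replicates came from separate cultures, and all libraries come from 1 line.

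HOX proteins are homeodomain transcription factors that set position along the body axis, and within each cluster the genes lie in the order of the body regions they pattern. Genes are numbered from anterior to posterior, and genes of the same number in different clusters are paralogues. HOX genes are held silent by Polycomb complexes and kept active by Trithorax proteins, and retinoic acid induces them in order. MEIS2 is a TALE homeodomain protein, a family that binds DNA together with HOX proteins. HAND2 is a basic helix-loop-helix factor of the sympathetic lineage from which neuroblastoma arises, and it pairs with E proteins, of which TCF4 is one, on the E-box CANNTG.

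The 5 lists hold 9595 to 33484 peaks each, with a median pile-up at the summit of 13 (MEIS2 replicate 2) to 60 (TCF4) fragments. The fold of a peak is the authors' ratio of summit pile-up to local background, and it is read only against other peaks of its own list. The range in parentheses after a fold is an exact 95% Poisson interval, which covers counting error alone. Both MEIS2 libraries carry the same antibody label, but the peak identifiers of replicate 2 hold the word Flag, and only 24.6% of MEIS2 replicate 1 peaks over the whole list overlap a replicate 2 peak. Markers of the labelled cell type were listed with earlier results of these data known, so their counts are no independent check of it. Of 10 markers of adrenergic neuroblastoma (sympathetic regulators, and catecholamine genes such as TH and DBH), 10 had a peak within 1 kb of a gene end in HAND2 replicate 1, against 20.6% of all protein-coding genes. The same held in HAND2 replicate 2, against 27.8%, and in TCF4, against 53.9%, while 9 had one in MEIS2 replicate 1, against 11.5%, and 2 in MEIS2 replicate 2, against 2.18%. Of 4 blood markers, CD79A had HAND2 peaks and SPI1 a TCF4 peak. Of 3 liver markers, TAT had HAND2 and TCF4 peaks, and of 2 muscle markers MYOD1 had a TCF4 peak.

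The HOXC and HOXD clusters held peaks of all 3 factors, and the HOXA and HOXB clusters held none. Counted by summit between the lowest and highest ends of the listed genes, HOXC (117.2 kb) had 9 HAND2 peaks in replicate 1 and 14 in replicate 2, 4 MEIS2 peaks in replicate 1 and 0 in replicate 2, and 10 TCF4 peaks. HOXD (103.4 kb) had 4 HAND2 peaks in replicate 1 and 8 in replicate 2, while MEIS2 had 4 in replicate 1 and 0 in replicate 2 and TCF4 had 12. HOXA (99.7 kb) and HOXB (200.2 kb) had 0 peaks in each of the 5 lists. HAND2 regions, which need a peak of both replicates, numbered 9 in HOXC and 3 in HOXD, and MEIS2 regions numbered 0 in all 4 clusters.

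Per 100 kb, HOXC had 7.68 and 11.95 HAND2 summits in replicates 1 and 2 and HOXD 3.87 and 7.74, against 1.0 and 1.11 over the chromosomes. TCF4 summits stood at 8.53 per 100 kb in HOXC and 11.6 in HOXD, against 1.01 over the chromosomes. MEIS2 replicate 1 had 3.41 per 100 kb in HOXC and 3.87 in HOXD, against 0.32. Much of the chromosomes is poor in genes, so windows of each cluster's own length with 5 or more protein-coding genes are a closer comparison. All 5 lists together gave 37 summits in HOXC and 28 in HOXD, against a median of 12 in such windows for either length. As many or more were found in 7.55% of windows as long as HOXC and in 12.6% of those as long as HOXD, and for TCF4 alone in 27.1% and 18.0%. Of windows as long as HOXA, 61 of 502 (12.2%) also had no peak of any library, as did 115 of 1040 (11.1%) as long as HOXB. Genes, clusters and peaks are not replicates, and these counts carry no test.

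**Figure D1:**
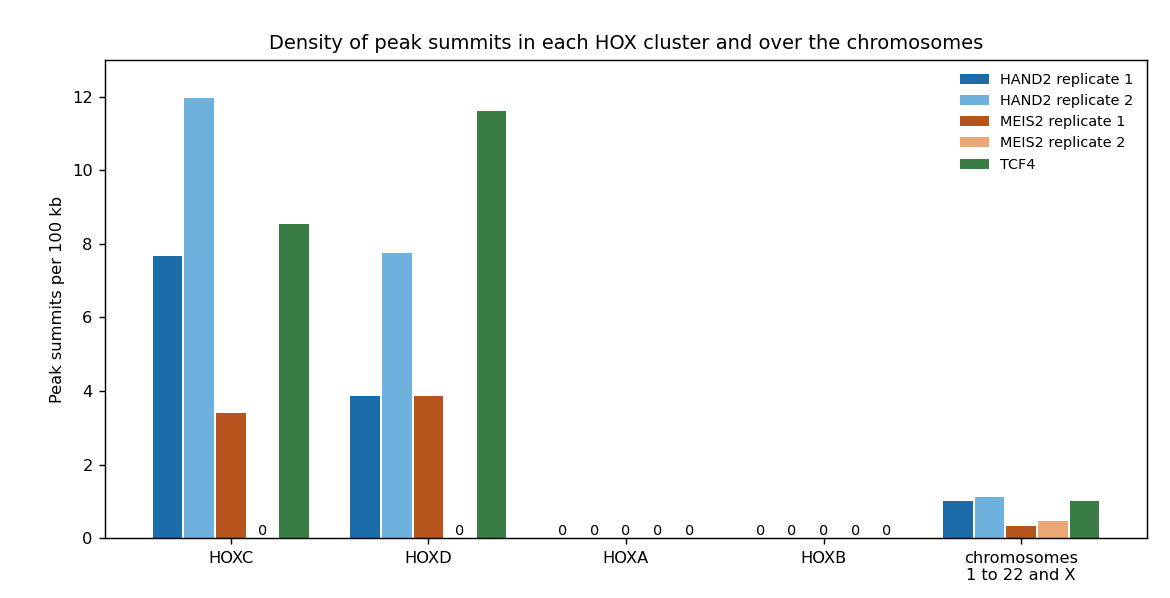
Peak summits per 100 kb (vertical axis) in each HOX cluster and over chromosomes 1 to 22 and X, with 1 bar for each library. HOXC and HOXD stand above the chromosomes for HAND2, MEIS2 replicate 1 and TCF4, MEIS2 replicate 2 is at 0 in every cluster, and HOXA and HOXB are at 0 for every library.

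The empty stretches reached well beyond the genes of HOXA and HOXB. Around HOXA no library had a peak over 876.6 kb (chr7:26491193-27367803, hg38), a stretch that also holds SKAP2, an adaptor of immune cell signalling, and EVX1, the homeobox gene next to the posterior end of the cluster. Around HOXB the stretch measured 688.8 kb (chr17:48128037-48816847) and also held SKAP1, PRAC1 and PRAC2. An occupied cluster had a long one too: no library had a peak from chr12:53626509 to 53967208, which takes in HOXC13 and HOXC12. The surroundings were not alike. Outside HOXB but within 1 Mb of it, HAND2 had 2.2 and 2.6 summits per 100 kb in replicates 1 and 2 and TCF4 had 2.8, all above the chromosomes as a whole. Outside HOXA the same range had 1.0, 0.65 and 0.45. The occupied clusters differed in a similar way, with 1.7, 2.55 and 2.25 outside HOXC and 0.75, 0.75 and 0.3 outside HOXD. MEIS2 replicates 1 and 2 had 1.2 and 0.25 outside HOXB and 0.35 and 0.75 outside HOXA, against 0.32 and 0.46 over the chromosomes. The median background at TCF4 peaks in these ranges was 14.9 fragments around HOXB and 7.37 around HOXA, against 11 over the list. Around HOXC it was 17.2 and around HOXD 11. Inside HOXA and HOXB no peak gives a background value, so the part of control coverage in their lack of peaks was not tested.

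**Figure D2:**
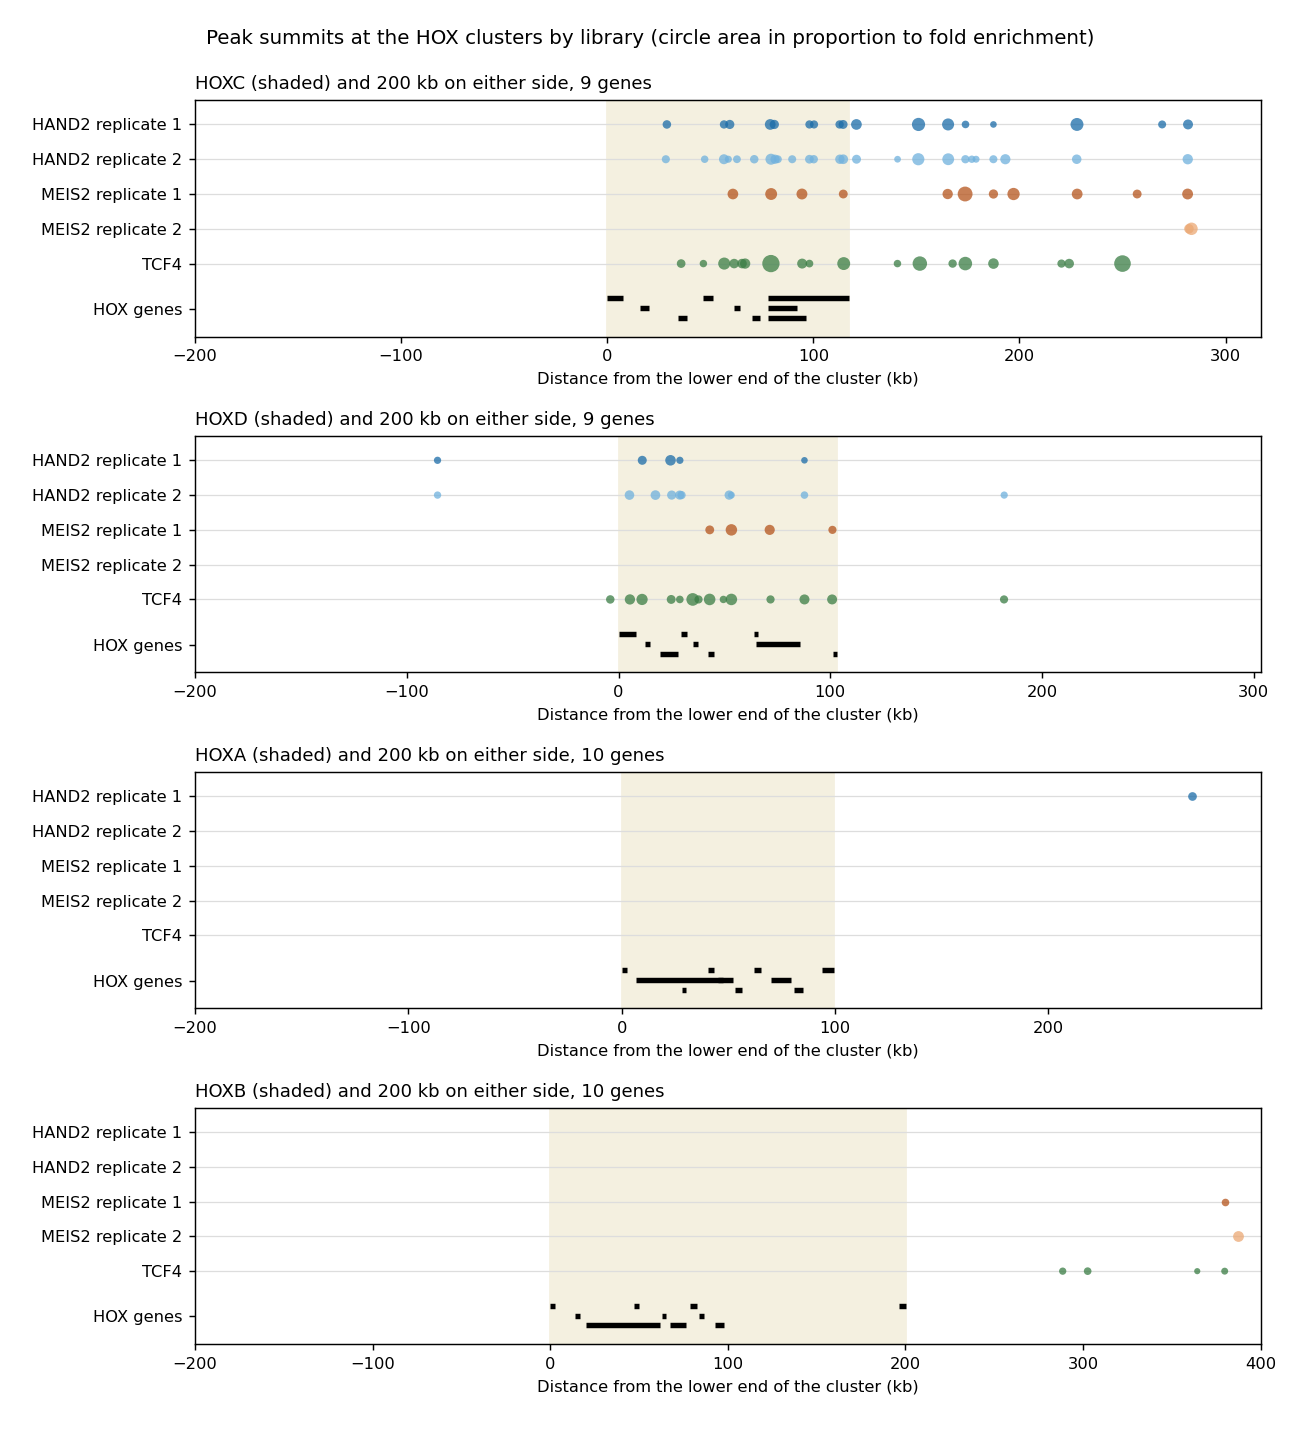
Peak summits at the 4 clusters and 200 kb on either side, by distance in kb from the lower end of each cluster (horizontal axis), with a row for each library and black bars for the listed genes. Circle area is in proportion to fold. HOXC and HOXD hold summits inside the shaded cluster, HOXA and HOXB none, and all HOXC flank summits lie beyond the HOXC4 end.

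At gene ends the share of HOX genes with a peak, over all 4 clusters together, stood below that of all protein-coding genes in every library but MEIS2 replicate 1. The difference was not tested. A gene was counted where a peak reached 1 kb on either side of either end, since the gene table gives no strand. HAND2 replicate 1 had a peak at 6 of 38 HOX genes, against 20.6% of all protein-coding genes. HAND2 replicate 2 had one at 7, against 27.8%, and a HAND2 region of both replicates reached 5, against 19.1%. MEIS2 replicate 1 had a peak at 6, or 15.8%, against 11.5%. MEIS2 replicate 2 had none, against 2.18%, and a MEIS2 region of both replicates reached none, against 0.946%. TCF4 had a peak at 11 HOX genes, or 28.9%, against 53.9%, and any library at 12, or 31.6%, against 57.3%. The 12 fall into 6 of 9 HOXC genes and 6 of 9 HOXD genes, with none of the 10 HOXA and 10 HOXB genes. In HOXC, HAND2 replicates 1 and 2 had a peak at 3 and 5 of the 9, MEIS2 replicate 1 at 4 and TCF4 at 5. In HOXD these were 3, 2, 2 and 6 of the 9. The shares of all 38 thus mix 2 occupied clusters with 2 that had no peak.

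**Figure D3:**
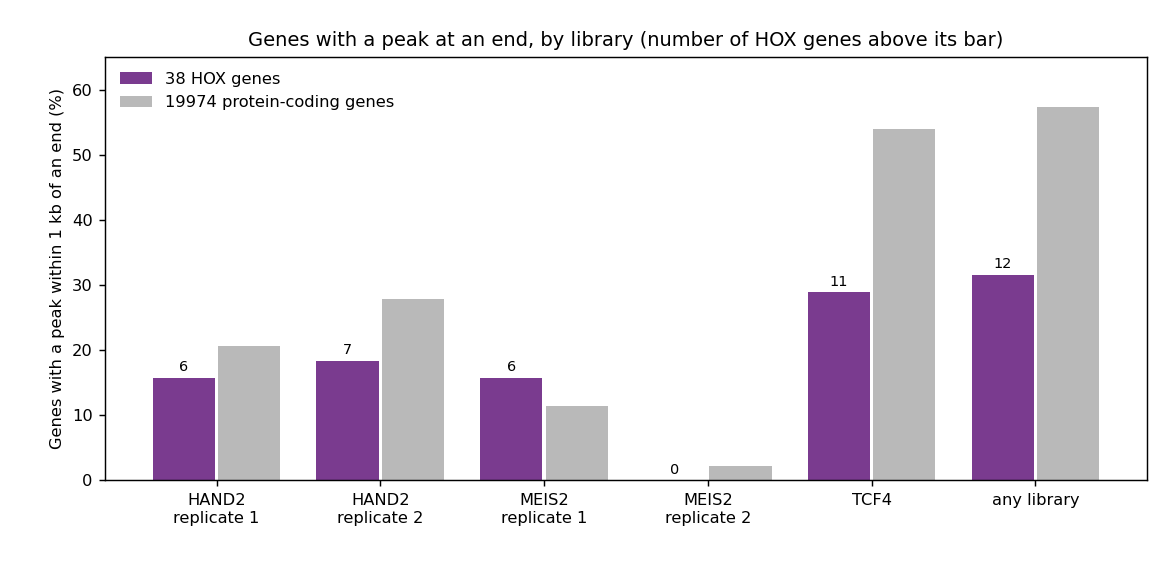
Share of genes with a peak within 1 kb of an end (vertical axis, percent) for the 38 HOX genes and for all 19974 protein-coding genes, by library. Only for MEIS2 replicate 1 does the HOX bar stand above its neighbour, at 15.8% against 11.5%. The 38 include the HOXA and HOXB genes, which had no peak.

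By position along the body axis, any library had a peak at 1 of 7 anterior genes (numbers 1 to 3), 5 of 15 central genes (4 to 8) and 6 of 16 posterior genes (9 to 13). The share of all protein-coding genes was 57.3%. Position and cluster cannot be told apart in these counts. Of the 7 anterior genes 2 lie in HOXD and the others in HOXA and HOXB, and HOXC has none. The occupied clusters differed in which of their genes had a peak. In HOXC the central genes had peaks at 4 of 4 and the posterior genes at 2 of 5. In HOXD the posterior genes had peaks at 4 of 5, the central at 1 of 2 and the anterior at 1 of 2. These genes are not separate counts, since HOXC4, HOXC5 and HOXC6 share an end and its peaks. HOXD10 and HOXD11 are also reached by the same peaks, and HOXC8 rests on HAND2 replicate 2 alone. HOXC11, HOXC12, HOXC13, HOXD3, HOXD4 and HOXD13 had no peak at an end of their gene table entries. Within 1 kb of the start in their RefSeq promoter entries, HOXD13 had HAND2 replicate 2 and TCF4 peaks and HOXD3 a MEIS2 replicate 1 peak. The HOXD and anterior counts thus depend on the entry used. HOXC12 and HOXC13 lie in a stretch with no peak of any library, of which 28.4 kb is inside the cluster. The stretch runs on beyond HOXC13, to chr12:53626509.

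The strongest HOX peak of HAND2, MEIS2 and TCF4 alike lay just inside the lower end that HOXC4, HOXC5 and HOXC6 share in the gene table (chr12, position 54016888). These central genes pattern the neck and upper trunk in mouse. HAND2 folds there were 5.91 (5.02 to 6.92) in replicate 1 and 6.26 (5.41 to 7.21) in replicate 2, MEIS2 replicate 1 had 7.23 (5.55 to 9.27), MEIS2 replicate 2 had no peak, and TCF4 had 15.3 (13.9 to 16.8). The HAND2 replicates overlapped within counting error. The TCF4 peak had a pile-up of 434 fragments and ranked 2341 of 30704, in the upper 7.62% of its list. In their own lists the HAND2 peaks stood at 39.9% and 31.8% from the top and the MEIS2 replicate 1 peak at 34.0%. The 4 summits fell within 456 bp of each other, 1027 to 1483 bp inside the shared end. Because the 3 genes overlap from this end, the peak cannot be given to one of them.

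Promoter sequences, from 250 bases before to 50 after a gene's start, were taken from RefSeq (GRCh38.p14), which held entries for 20 of the 38 genes. Those shown are the windows at occupied ends whose peaks the results turn on, and 1 from an empty cluster for contrast. Capitals mark every CANNTG, the E-box that basic helix-loop-helix dimers read, and TGACAG, the core that MEIS proteins read. The window that HOXC4 and HOXC5 share was reached by the edges of both HAND2 peaks and of the MEIS2 replicate 1 peak, with no summit in it, and it holds 4 E-boxes.
HOXC4 and HOXC5, chr12:54016638-54016937, plus strand: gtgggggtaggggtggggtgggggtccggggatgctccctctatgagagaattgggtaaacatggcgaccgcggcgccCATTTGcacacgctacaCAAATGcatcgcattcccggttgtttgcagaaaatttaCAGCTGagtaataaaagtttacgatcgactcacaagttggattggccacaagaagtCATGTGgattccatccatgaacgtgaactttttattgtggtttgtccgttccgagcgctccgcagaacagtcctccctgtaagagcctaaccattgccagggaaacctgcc

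HOXC8, HOXC9 and HOXC10 had peaks of lower fold at their ends, in 1 or 2 factors each. HOXC5 also had peaks at its higher end, with HAND2 folds of 3.52 and 3.94 in replicates 1 and 2 and a TCF4 fold of 5.09. HOXC8, a central gene that acts in the thoracic region in mouse, had a HAND2 replicate 2 peak alone, at 3.67 (2.28 to 5.62), from a pile-up of 19. HOXC9, its posterior neighbour, had a MEIS2 replicate 1 peak at 5.85 (3.44 to 9.42) from a pile-up of 15, and TCF4 peaks of 4.66 at both of its ends. HOXC10, which acts in the lumbar region in mouse, had a HAND2 replicate 2 peak at 2.87 (2.02 to 3.98) and a TCF4 peak at 2.85 (2.07 to 3.82). HOXC11 had a TCF4 peak inside the gene at 3.85, in a part it shares with the long non-coding RNA HOTAIR.

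In HOXD, TCF4 had a peak at each of the 6 occupied genes, and the other factors were divided among them. HOXD1, the most anterior gene of the cluster, had MEIS2 replicate 1 at 3.41 from a pile-up of 21 and TCF4 at 5.11 (3.93 to 6.52). HOXD8 had MEIS2 replicate 1 at 4.03 (2.44 to 6.32) and TCF4 at 6.85 (5.46 to 8.49), with summits 54 bp apart. HOXD9, a posterior gene, had TCF4 alone, at 8.22 (6.64 to 10.1) at the lower end, which was the strongest peak of the cluster, and at 3.45 at the higher end. No HAND2 peak reached HOXD1, HOXD8 or HOXD9.

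HAND2 peaks at HOXD ends were confined to HOXD10, HOXD11 and HOXD12, genes that act in the posterior trunk and limbs in mouse. HOXD10 and HOXD11 are reached by the same peaks between them, with HAND2 folds of 2.67 (1.81 to 3.79) in replicate 1 and 4.27 (3.11 to 5.71) in replicate 2, and TCF4 at 2.98 (2.04 to 4.21). These summits lay 307 to 383 bp before HOXD10. HOXD12 had HAND2 replicate 1 at 4.15 (2.55 to 6.43) and TCF4 at 6.47 (4.52 to 9.02), but no peak in HAND2 replicate 2. HOXD13, the most posterior gene, had no peak at an end of its gene table entry, which starts at 176087487. Its RefSeq promoter entry lies within that gene, and there HAND2 replicate 2 had a summit at 4.7 (3.05 to 6.95) and TCF4 a peak at 5.42 (3.69 to 7.71). Likewise HOXD3 had MEIS2 replicate 1 at 5.28 (2.99 to 8.76) and TCF4 at 3.46 inside the gene, the MEIS2 replicate 1 peak within 1 kb of its listed start.

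The HOXD windows shown are those that a peak reached. The HOXD1 window held the MEIS2 replicate 1 summit and was covered by the TCF4 peak, as was that of HOXD8. The HOXD10 window was reached by the peaks of both HAND2 libraries and of TCF4, whose summits lay before it. The HOXD13 window held the HAND2 replicate 2 summit. HOXA7 is set beside them as a gene of an empty cluster with no peak, and its 4 E-boxes are the most of any HOXA or HOXB window.
HOXD1, chr2:176188418-176188717, plus strand: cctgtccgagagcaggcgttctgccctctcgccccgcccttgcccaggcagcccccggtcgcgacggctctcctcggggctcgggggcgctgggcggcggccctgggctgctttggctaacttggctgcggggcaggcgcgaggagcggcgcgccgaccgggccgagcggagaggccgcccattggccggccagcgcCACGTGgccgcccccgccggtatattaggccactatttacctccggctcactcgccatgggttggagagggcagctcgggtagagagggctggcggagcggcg
HOXD8, chr2:176129455-176129754, plus strand: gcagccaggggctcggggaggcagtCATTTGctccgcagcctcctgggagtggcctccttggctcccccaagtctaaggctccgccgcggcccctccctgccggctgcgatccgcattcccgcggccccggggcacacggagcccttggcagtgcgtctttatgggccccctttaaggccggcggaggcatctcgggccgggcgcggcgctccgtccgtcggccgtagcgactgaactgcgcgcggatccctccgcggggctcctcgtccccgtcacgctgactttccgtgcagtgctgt
HOXD10, chr2:176116528-176116827, plus strand: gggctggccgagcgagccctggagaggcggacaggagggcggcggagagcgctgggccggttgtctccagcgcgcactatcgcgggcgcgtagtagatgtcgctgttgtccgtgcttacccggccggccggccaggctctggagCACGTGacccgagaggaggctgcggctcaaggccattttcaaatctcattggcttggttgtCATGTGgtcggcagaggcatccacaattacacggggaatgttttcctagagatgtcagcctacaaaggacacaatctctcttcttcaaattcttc
HOXD13, chr2:176092471-176092770, plus strand: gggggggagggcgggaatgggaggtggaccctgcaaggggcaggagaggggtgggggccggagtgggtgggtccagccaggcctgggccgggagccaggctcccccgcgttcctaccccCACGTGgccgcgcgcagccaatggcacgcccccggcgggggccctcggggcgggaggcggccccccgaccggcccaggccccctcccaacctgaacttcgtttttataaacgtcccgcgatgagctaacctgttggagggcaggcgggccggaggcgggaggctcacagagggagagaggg
HOXA7, chr7:27156626-27156925, minus strand: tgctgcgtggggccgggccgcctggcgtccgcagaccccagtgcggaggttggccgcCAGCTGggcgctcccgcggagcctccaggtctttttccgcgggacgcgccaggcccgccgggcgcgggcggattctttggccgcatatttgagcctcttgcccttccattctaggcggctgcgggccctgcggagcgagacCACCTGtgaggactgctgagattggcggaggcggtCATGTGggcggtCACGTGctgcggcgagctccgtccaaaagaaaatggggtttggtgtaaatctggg

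Matches to CANNTG and TGACAG were found in promoters of occupied and of empty clusters alike. Of distinct promoter windows, CANNTG was found in 8 of 9 of HOXC and HOXD and in 11 of 17 of HOXA and HOXB, against 65.1% of 21943 windows of all protein-coding genes. TGACAG, searched on both strands as all motifs were, was found in 1 of 9 and 3 of 17, against 14.9%. CAGCTG, an E-box read by many E protein dimers, was in 1 of 9 and 5 of 17, against 18.0%. CATCTG was in 0 of 9 and 2 of 17, against 12.2%, and CAGGTG in 0 of 9 and 1 of 17, against 4388 of the 21943. CACGTG, an E-box form that MYC proteins read and which was added after the sequences were seen, was in 5 of 9 and 4 of 17, or 34.6% of HOX windows, against 8.28%. TGATNNAT, a letter pattern of joint HOX and TALE sites, was in 1 of 9 and 2 of 17, against 5.2%. Every form named here with CA and TG at its ends is also a CANNTG match, and a match is not a bound site. Of the 17 windows 16 are of HOXA, and several of these are other starts of HOXA3. Of the 9 windows only 1 is of HOXC, the one that HOXC4 and HOXC5 share. The rest are of HOXD, as are all 5 with CACGTG, so these counts compare mainly HOXD with HOXA.

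**Figure D4:**
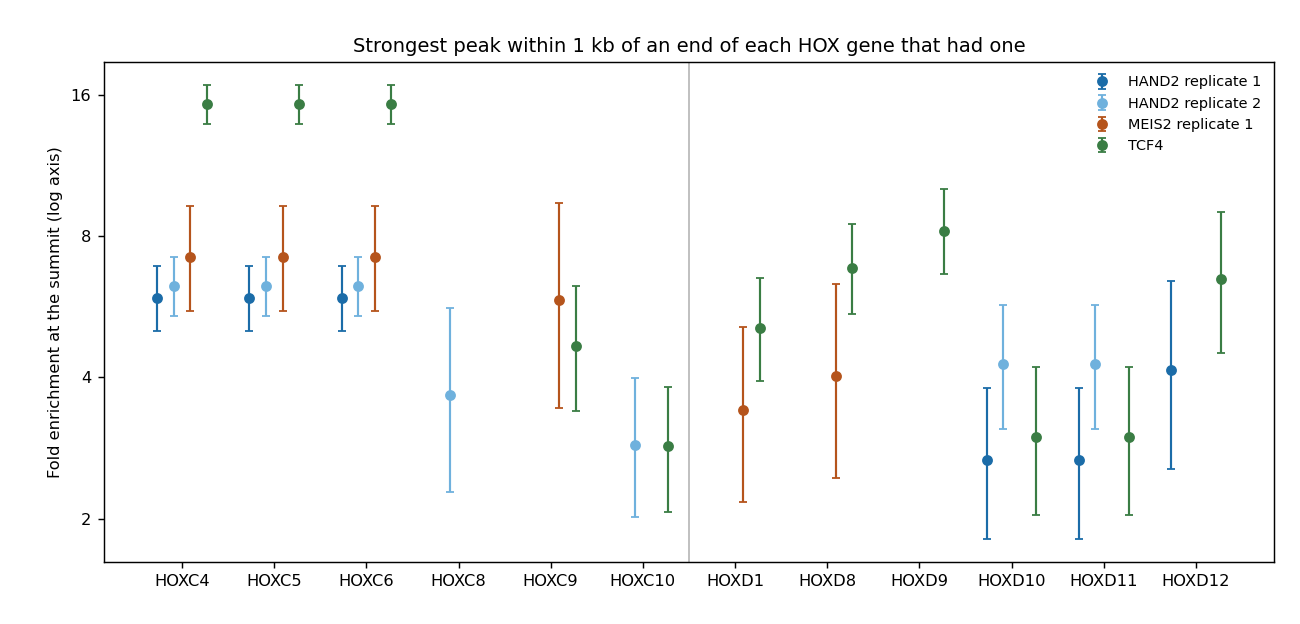
Fold enrichment at the summit (vertical log axis) of the strongest peak at an end of each HOX gene that had one, with exact 95% Poisson intervals of the pile-up, by library. HOXC4, HOXC5 and HOXC6 share 1 peak in each library and HOXD10 and HOXD11 another, and the TCF4 peak at HOXC4 to HOXC6, at 15.3, stands above the others.

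Many HOX peaks lay away from gene ends. Merged over libraries, the peaks of HOXC and HOXD formed 32 stretches, 19 in HOXC and 13 in HOXD. Of these, 13 reached an end of a listed gene and 19 did not. 21 held peaks of 2 or more libraries and 11 of 1 library, which was HAND2 replicate 2 in 5 cases and TCF4 in 6. All 3 factors met in 3 stretches, the first of them at the shared end of HOXC4 to HOXC6. The second lay within HOXC4 (chr12:54052215-54054431), where HAND2 folds were 4.09 and 4.77 in replicates 1 and 2, MEIS2 replicate 1 was at 4.03 and TCF4 at 8.52. The third lay between HOXD8 and HOXD4 (chr2:176139234-176141236), where MEIS2 replicate 1 was at 6.74 and TCF4 at 6.78. HAND2 replicate 2 had a peak of 2.46 that overlapped both of these, and another of 4.43 that overlapped the TCF4 peak but not that of MEIS2, while HAND2 replicate 1 had none.

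The libraries did not share their HOX peaks evenly. All 8 MEIS2 replicate 1 peaks in the clusters overlapped a TCF4 peak, against 66.6% of its whole list. Of the same 8, 2 overlapped a HAND2 replicate 1 peak (25%) and 3 a HAND2 replicate 2 peak (37.5%), against 80.8% and 81.5% of the whole list. The MEIS2 and TCF4 peaks without HAND2 lay at HOXC9, HOXC5, HOXD8, HOXD3 and HOXD1. Of 13 HAND2 replicate 1 peaks, 12 overlapped replicate 2 (92.3%), against 78.5% of the list, while of 22 replicate 2 peaks 13 overlapped replicate 1 (59.1%), against 71.6%. Of the same HAND2 replicate 2 peaks, 11 overlapped TCF4, a share close to the 49.7% of its list, and of the replicate 1 peaks 8 did (61.5%), against 44.3%. The 2 clusters differed in this overlap. In HOXC 5 of 14 replicate 2 peaks (35.7%) and 4 of 9 replicate 1 peaks (44.4%) overlapped TCF4. In HOXD 6 of 8 (75%) and 4 of 4 did. The shares rest on few peaks and were not tested.

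**Figure D5:**
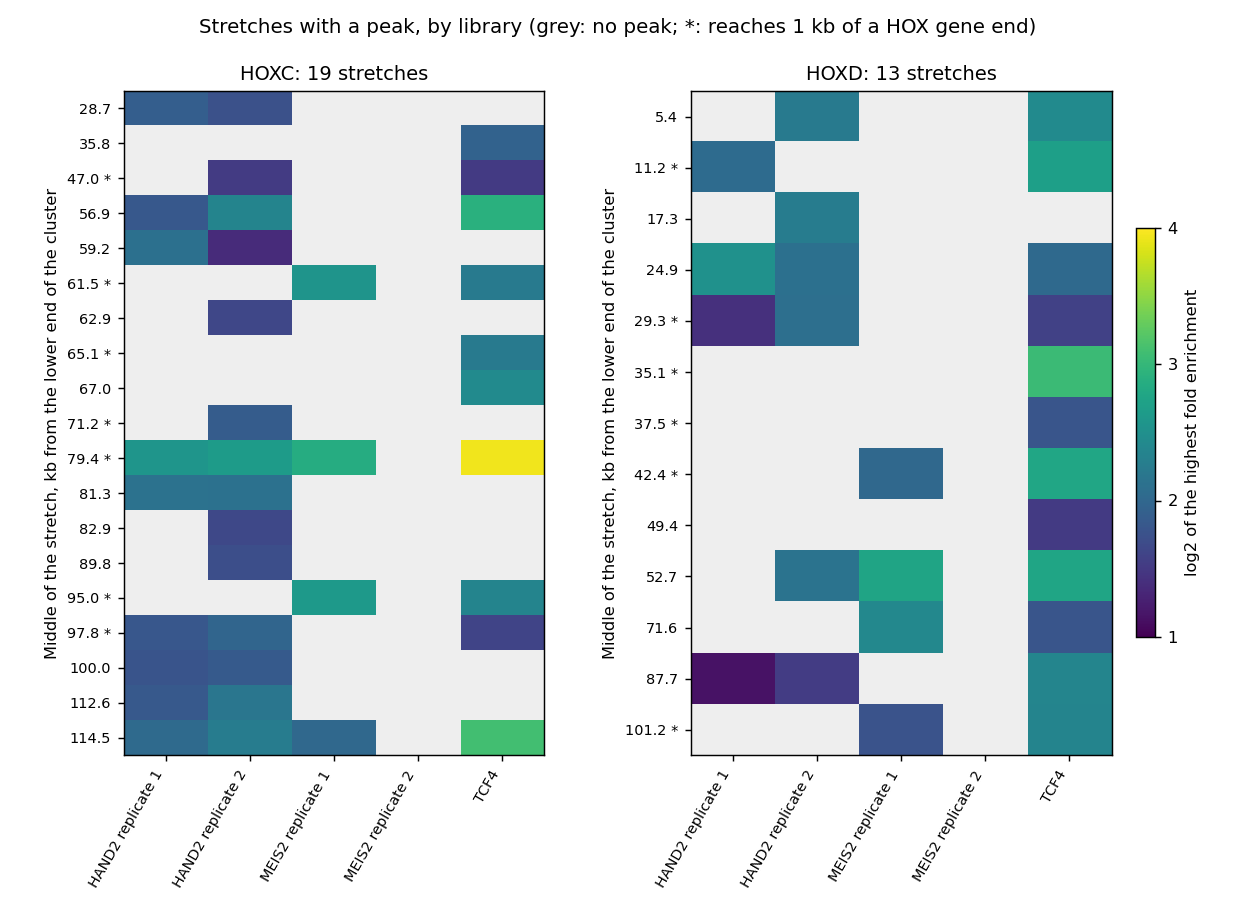
The 32 stretches with a peak in HOXC and HOXD (rows, by distance of the middle from the lower end of the cluster in kb), with the log2 of the highest fold in each library (columns) as colour and grey where a library had no peak. MEIS2 replicate 2 is grey throughout, and MEIS2 replicate 1 has no coloured cell where TCF4 is grey.

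HAND2 peaks in the clusters were mostly below the median fold of their lists, while those of TCF4 lay around it. HAND2 replicate 1 folds had a median of 3.73 in HOXC and 3.41 in HOXD, against 5.08 over the list, and HAND2 replicate 2 of 3.63 and 4.29, against 4.67. MEIS2 replicate 1 folds had medians of 5.97 in HOXC and 4.66 in HOXD, against 5.9. TCF4 had 4.88 and 5.13, against 4.98, with 5 of 10 HOXC peaks and 7 of 12 HOXD peaks above the list median. The median background at these peaks was 7.1 and 6.94 fragments for HAND2 replicate 1 in HOXC and HOXD, against 5.52 over its list. It was 8.46 and 5.31 for HAND2 replicate 2, against 7.45, and 4.32 and 3.38 for MEIS2 replicate 1, against 2.66. For TCF4 it was 9.61 and 9.8, against 11.

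The flanks differed between the ends of a cluster. Within 200 kb of HOXC every peak lay beyond the HOXC4 end, with 8 peaks for HAND2 replicate 1, 11 for HAND2 replicate 2, 7 for MEIS2 replicate 1, 2 for MEIS2 replicate 2 and 8 for TCF4, and none beyond the HOXC13 end. The strongest were a TCF4 peak of 14.1 (10.8 to 18.0) at an end of SMUG1, a uracil DNA glycosylase gene, and a MEIS2 replicate 1 peak of 11.3 (9.02 to 14.0) in the non-coding gene FLJ12825. At this FLJ12825 site (chr12:54111952-54113184) TCF4 stood at 9.41 and HAND2 at 2.97 and 3.5 in replicates 1 and 2. A second FLJ12825 site, with HAND2 summits 33837 and 33736 bp beyond HOXC4, had HAND2 at 8.9 (6.5 to 11.9) and 7.6 (5.53 to 10.2) and TCF4 at 10.7 (8.71 to 13.1), above all HAND2 folds inside the cluster. MEIS2 replicate 2 had 2 peaks here, near CBX5, the heterochromatin protein gene, at 4.64 and 7.95.

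Around HOXD the flanks were sparse, with 1 HAND2 replicate 1, 2 HAND2 replicate 2, 0 MEIS2 and 2 TCF4 peaks. A TCF4 peak of 3.68 lay at EVX2, the homeobox gene next to HOXD13. HAND2 folds at LNPK were 2.7 and 2.76, and MTX2 had HAND2 replicate 2 at 2.67 and TCF4 at 3.43. HOXA had 1 flank peak in all, of HAND2 replicate 1, at 3.88 (1.98 to 7.02) from a pile-up of 9. The HOXB flank peaks lay beyond HOXB13, with TCF4 at 2.71 at TTLL6, 3.0 at CALCOCO2, 1.95 at ATP5MC1 and 2.48 at UBE2Z. MEIS2 had 1 peak in each replicate at UBE2Z, at different places, with folds of 2.96 and 5.98.

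MicroRNA genes lie between HOX genes and several of them are known to target HOX transcripts. Their mature sequences (RefSeq, GRCh38.p14) are shown with the seed, bases 2 to 8, in capitals, because copies of 1 seed lie both in occupied and in empty clusters. miR-196a-5p and miR-196b-5p share their seed. MIR196B in HOXA and MIR196A1 in HOXB had no peak within 100 kb, and MIR196A2 in HOXC had none over it, with the nearest HAND2 and TCF4 summits 3679 to 3812 bp away. MIR615, inside HOXC5 and HOXC4 (chr12:54033950-54034045), was covered by the TCF4 peak of 5.09, with the MEIS2 replicate 1 summit, at 6.1 (3.96 to 9.02), 695 bp away. MIR7704, inside HOXD1, was covered by the TCF4 peak of 5.11, MIR10B in HOXD was not covered, and MIR10A in HOXB had no summit within 200 kb.
hsa-miR-615-5p: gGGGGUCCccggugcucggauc
hsa-miR-615-3p: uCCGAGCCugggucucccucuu
hsa-miR-196a-5p: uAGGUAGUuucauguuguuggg
hsa-miR-196b-5p: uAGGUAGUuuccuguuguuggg
hsa-miR-10a-5p: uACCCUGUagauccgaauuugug

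Long non-coding RNA genes of HOXC and HOXD also lay under peaks. HOTAIR, transcribed between HOXC11 and HOXC12, held HAND2 summits at 3.73 and 3.35 in replicates 1 and 2 and a TCF4 summit at 3.85. HOXC-AS2, before HOXC9, held HAND2 at 3.56 and 5.09 and TCF4 at 7.47 (5.79 to 9.49), the third highest TCF4 peak of the cluster. HAGLR, between HOXD3 and HOXD1, held, at its end away from HOXD1, HAND2 at 2.21 and 2.9 and TCF4 at 5.15, with summits within 10 bp of each other. HOTAIRM1 and HOTTIP, at the ends of HOXA, had none.

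Genes that act with or on HOX genes were counted in the same way. Of 9 TALE cofactor genes, 8 had a TCF4 peak at an end, 4 a HAND2 peak in each replicate, 4 a MEIS2 replicate 1 peak and 2 a MEIS2 replicate 2 peak. PBX3, a HOX partner, had TCF4 at 48.5, MEIS2 replicate 1 at 6.75 and HAND2 at 4.75 and 4.93. MEIS2 itself had MEIS2 peaks at 17.8 and 2.97, and MEIS1 had peaks in all 5 libraries at 5.11 to 6.16. Of 27 Polycomb and Trithorax genes, 26 had a TCF4 peak, 8 a HAND2 replicate 1 peak, 8 a HAND2 replicate 2 peak, 7 a MEIS2 replicate 1 peak and 0 a MEIS2 replicate 2 peak. A HAND2 region of both replicates reached 6 of them. KMT2B, a histone methyltransferase of the Trithorax group, had TCF4 at 33.0, and CBX7, a Polycomb reader, at 18.3. Of 14 retinoid genes, 8 had a TCF4 peak, 5 a HAND2 replicate 1 peak and 6 a replicate 2 peak, with MEIS2 at 2 in replicate 1 and 1 in replicate 2. RARA, a retinoic acid receptor, had HAND2 at 30.2 and 30.0, MEIS2 at 6.07 and 13.8 and TCF4 at 13.9. Of 20 other homeobox genes that lie in clusters, 9 had a TCF4 peak, 4 and 6 a HAND2 peak in replicates 1 and 2, 1 a MEIS2 replicate 1 peak (IRX5) and another a MEIS2 replicate 2 peak (DLX2). DLX2, the leading one, had HAND2 at 14.3 and 17.0. The background shares given above for each library apply to these lists too, and the difference from the HOX genes was not tested.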

How the data were processed

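The 6 samples were grouped by the antibody in their labels. Peaks of 5 libraries were used, and IgG was taken to enter through the background. The submitters' processing notes name bcl2fastq 2.17, Bowtie2, MACS3 3.0.0a6 and hg38, without options. The deposited files hold 1 peak list for each HAND2, MEIS2 and TCF4 sample, not pooled, and the lowest −log10 q the authors deposited is 2.0 to 2.02. The deposited fold is a ratio of summit pile-up to local background. The deposited score, 10 times −log10 q, and the fold per width that the authors added were not used. Gaps in the peak numbering (0 to 10 per list) touched no HOX cluster or flank.

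The whole pile-up was recovered from each peak's fold and p (relative tolerance 5e-05, found for 100% of peaks; checked on simulated data). Read totals are unknown. HAND2 and MEIS2 regions are merged spans with peaks of both replicates (1 bp or more). Gene positions came from RefSeq GRCh38.p14, without strand or exons; an end counts with 1 kb on either side, a flank is 200 kb. Every HOX gene with a peak at an end is named. Lists are described by counts, with no test. Alternatives were other windows, thresholds, overlaps and flanks, and leaving out replicates. The members and lists were chosen with earlier results of these data known. Exons and UTRs, and the IgG coverage away from peaks, were not analysed here. Python 3.11.15, pandas 2.3.3 and scipy 1.17.1 were used.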

Additional observations from a re-analysis of the deposited data

How the results depend on the processing

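Over 105 alternative values of 27 counts and densities, 81 stayed within 1.5 times the value reported, and all 30 for HOXA and HOXB themselves stayed at 0. Most of these 30, which are part of the 81, could not have changed. Stricter thresholds and overlaps only remove peaks, and each replicate alone was already reported at 0. The count by any base in the cluster could have risen, and it too was 0. For MEIS2, gene ends, HOXC and HOXD were also reported at 0. Stricter thresholds and overlaps, or replicate 2 alone, could not change those either, and they too are part of the 81. With −log10 q of 5 or more, HOX genes with a HAND2 region at an end fell to 3, against 5, and HAND2 regions in HOXD to 1, against 3. In the 5000 peaks of highest fold the HAND2 values were 0 for gene ends, HOXC and HOXD, and TCF4 had 3 genes, 1 peak in HOXC and 0 in HOXD, so what remains there rests on the HOXC4 to HOXC6 peak. With 5′ ends only, which covers 20 genes, HAND2 regions reached 3 and TCF4 7. Using 1 replicate alone, HAND2 gave 6 to 7 genes, 9 to 14 peaks in HOXC and 4 to 8 in HOXD. MEIS2 gave 0 to 6 genes, 0 to 4 peaks in HOXC and 0 to 4 in HOXD, all from replicate 1. With 100 kb flanks, densities per 100 kb were 0.5 for HAND2 at HOXD, 0 for MEIS2 at HOXC, and 0.5 and 1 for TCF4 at HOXB and HOXD. With 500 kb flanks they were 0.1, 0.9 and 0.7 for HAND2 at HOXA, HOXB and HOXD, 0.2 for MEIS2 at HOXD and 0.2 for TCF4 at HOXA. The cause was not tested. Windows of 500 bp or 2 kb, any base in the cluster and an overlap of at least 50% of the shorter peak moved none of these beyond 1.5 times. No paired analysis was possible because the results come from no test. Pile-ups of 13 to 25 at many HOX peaks limit what a missing peak shows, above all in MEIS2 replicate 2.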
